A study of Mus musculus with 6 samples.

Results

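Bone marrow megakaryocyte progenitors of mice given CTC41.5G-EVs were compared with those of mice given PBS. The pair was chosen by the titles of the arrays, CTC41.5G-EVs minus the PBS control, and made up 2 of the 6 arrays of the study. RNA was pooled within each group of mice before it went onto an array, so each treatment was measured once, no value has an error, and no test between the treatments was possible. The third progenitor array, from mice given CTC41-EVs, served to show how far progenitor arrays differ from each other, and the other 3 arrays held platelets from blood under the same treatments. EVs commonly stands for extracellular vesicles, membrane particles that cells release and that can carry RNA and protein to other cells. Strain, age and number of the mice, dose and time of treatment, and what the names CTC41 and CTC41.5G stand for were not given in the sources used here. The labels' protocols describe centrifugation, lysis and fixation of marrow cells and no sort by a surface marker. Some pools went straight to RNA isolation and others through bead depletion of leukocytes and erythrocytes, without a statement of which.

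Megakaryocyte progenitors arise from blood stem cells and give rise to megakaryocytes, the large marrow cells that shed platelets into the blood. On the way they switch on genes of platelet granules, adhesion receptors and a cytoskeleton that forms proplatelets, the long extensions from which platelets bud. Like other dividing progenitors they carry much ribosomal protein mRNA, and they answer handling and growth signals with immediate early genes, which are transcribed within minutes of a stimulus.

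Signals were deposited on a log2 scale, on which a difference of 0.585 is 1.5-fold. The median over all probes was 4.38 on the PBS array, 4.38 on the CTC41-EVs array and 4.45 on the CTC41.5G-EVs array. Genes were compared where their mean over the 3 progenitor arrays reached 5.08, the 75th percentile of all values, and 10636 genes did. A gene can thus pass this floor through the arrays where it is high and lie under it on another. Probes of different genes differ in brightness, so levels are compared between arrays for 1 gene and never between genes.

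More genes were higher than lower on the CTC41.5G-EVs array. Of the 10636 genes, 592 (5.57%) were at least 1.5-fold higher than with PBS and 81 (0.762%) at least 1.5-fold lower, and 59 and 6 reached 2-fold. The whole array was shifted, with a median difference of 0.13 over the genes compared and 7978 of them above 0. Measured from that median, 298 genes were at least 1.5-fold higher and 157 lower, a choice made after the values were seen. With 7978 of the 10636 genes above 0, a gene list can have most members higher without standing out. The counts of higher and lower members given below for each list are to be read beside that share. Counts of members past 1.5-fold are to be read beside the 5.57% and 0.762% of all genes. The balance also depended on how the arrays were scaled. Genes higher made up 88.0% of the genes past 1.5-fold as deposited, 77.8% with the progenitor arrays shifted to the same median (397 higher, 113 lower), 76.8% with them shifted to the same median of olfactory receptor genes (388 and 117), and 62.1% after quantile normalization (257 and 157). These 3 scalings lowered the median difference to 0.06, 0.05 and 0.02, and both shifts lowered each difference by the same amount. All 81 lower genes stayed lower by at least 1.5-fold. The shifts fixed this in advance, so it does not show how firm these calls are. Among the 6928 protein-coding genes, 162 (2.34%) were higher and 20 (0.289%) lower.

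The third array places this count. CTC41-EVs against PBS gave 335 genes higher (3.15%) and 11 lower (0.103%), while CTC41.5G-EVs against CTC41-EVs gave 65 higher (0.611%) and 85 lower (0.799%). The PBS array, shared by the first pairs, stood apart from the others. It was at least 1.5-fold below both EV arrays for 190 genes and above both for 0 genes, and it was the lowest of the 3 arrays for 5732 genes. The CTC41.5G-EVs array was at least 1.5-fold above both others for 29 genes and below both for 30, and the CTC41-EVs array for 14 and 3. Both EV comparisons use the same PBS array, so their calls are not independent. With 1 pool a treatment, a low PBS pool and an effect of the EVs cannot be told apart.

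The difference also moved with the brightness of the probe. Its median was 0.10 over the 4596 genes with a mean signal of 5 to 5.5, 0.15 over the 1731 genes from 6 to 7, 0.34 over the 451 genes from 7 to 8 and 0.56 over the 242 genes from 8 to 9. In these bins 1.70%, 10.5%, 24.6% and 47.9% of genes were at least 1.5-fold higher. CTC41-EVs minus PBS had medians of 0.03, 0.09, 0.28 and 0.32 in the same bins. The part of brightness in the results on bright genes, ribosomal protein genes and histones among them, was not tested.

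**Figure D1:**
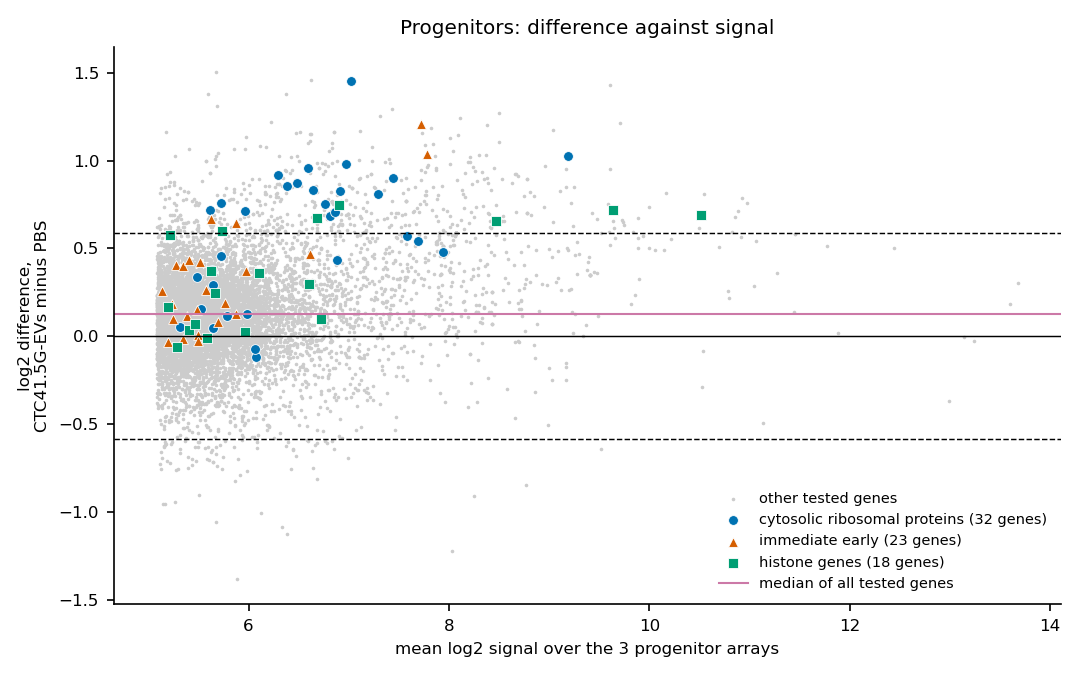
Each grey point is 1 tested gene, placed by its mean log2 signal over the 3 progenitor arrays and by its log2 difference, CTC41.5G-EVs minus PBS. Dashed lines mark 1.5-fold, the coloured line marks the median of all 10636 genes at 0.13, and of 32 ribosomal protein genes 30 lie above 0.

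Genes of the protein synthesis machinery were among those that differed most. Of the 32 tested genes of cytosolic ribosomal proteins, which build the ribosome's subunits, 30 were higher with CTC41.5G-EVs and 2 lower, 17 by at least 1.5-fold and 0 in the other direction. Their median difference was 0.70, against 0.13 over all genes, and it was 0.35 for CTC41-EVs minus PBS. Rpl4, of the large subunit, stood at 6.39 with PBS, 7.16 with CTC41-EVs and 7.37 with CTC41.5G-EVs, a difference of 0.98. Rps4x, a small subunit protein encoded on the X chromosome, stood at 5.73, 6.49 and 6.65. Both EV arrays lay above the PBS array for these 2 genes, and the 2 EV arrays lay closer to each other than to PBS. Rps15 had another pattern, at 6.13 with PBS and 6.31 with CTC41-EVs, and the CTC41.5G-EVs array stood 0.87 above the first and 0.69 above the second. Rps28 and Rpl22 were the members below 0, at -0.07 and -0.12.

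Not all probes listed for a gene come from that gene's locus. The probe identifiers carry a chromosome, which matched RefSeq's for 99.7% of 30128 probes. For 46 tested genes the probe with the highest mean, the one used, lay on another chromosome. Rpl35 was such a case and had the highest protein-coding difference, from 6.23 with PBS to 7.14 and 7.68 (1.45, 2.74-fold). Its probe on its own chromosome read 6.01, 6.40 and 6.97, a difference of 0.95. For Rpl41 the used probe, on chromosome 14, read 8.66, 9.24 and 9.68, whereas the probe on chromosome 10, where the gene lies, read 5.88, 6.01 and 5.85. For Rps26 the used probe, on its own chromosome, read 6.02, 6.78 and 6.97 and differed by 0.96, and the mean of its probes by 0.56. Without probes on other chromosomes, a check added after the values were seen, the ribosomal protein list held 31 tested genes with a median of 0.49 and 14 at least 1.5-fold higher.

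Pseudogene copies of ribosomal protein genes showed a like pattern. Of 157 tested ribosomal protein pseudogenes, a list added after the values were seen, 140 were higher and 17 lower, 85 by at least 1.5-fold and 0 lower by that much, with a median of 0.63. Rpsa-ps2 went from 5.73 with PBS to 6.28 with CTC41-EVs and 7.11 with CTC41.5G-EVs, and Rpl10a-ps1 from 9.16 to 9.58 and 10.38. These 2 were among the genes for which the CTC41.5G-EVs array stood furthest above both other arrays. Processed pseudogenes are near copies of an mRNA, so genes and pseudogenes may share transcripts on the array and are not independent counts. By mean log2 signal, the 10 ribosomal protein genes from 5.5 to 6 had a median difference of 0.33, beside 0.12 over other genes, the 13 from 6 to 7 one of 0.82, beside 0.14, and the 6 from 7 to 8 one of 0.69, beside 0.32. Rpl12 and Rpl27, from 6 to 7, and Rpl35 and Rpl7a, from 7 to 8, were read on other chromosomes. The pseudogenes had medians of 0.40, 0.56 and 0.72 in these 3 bins.

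**Figure D2:**
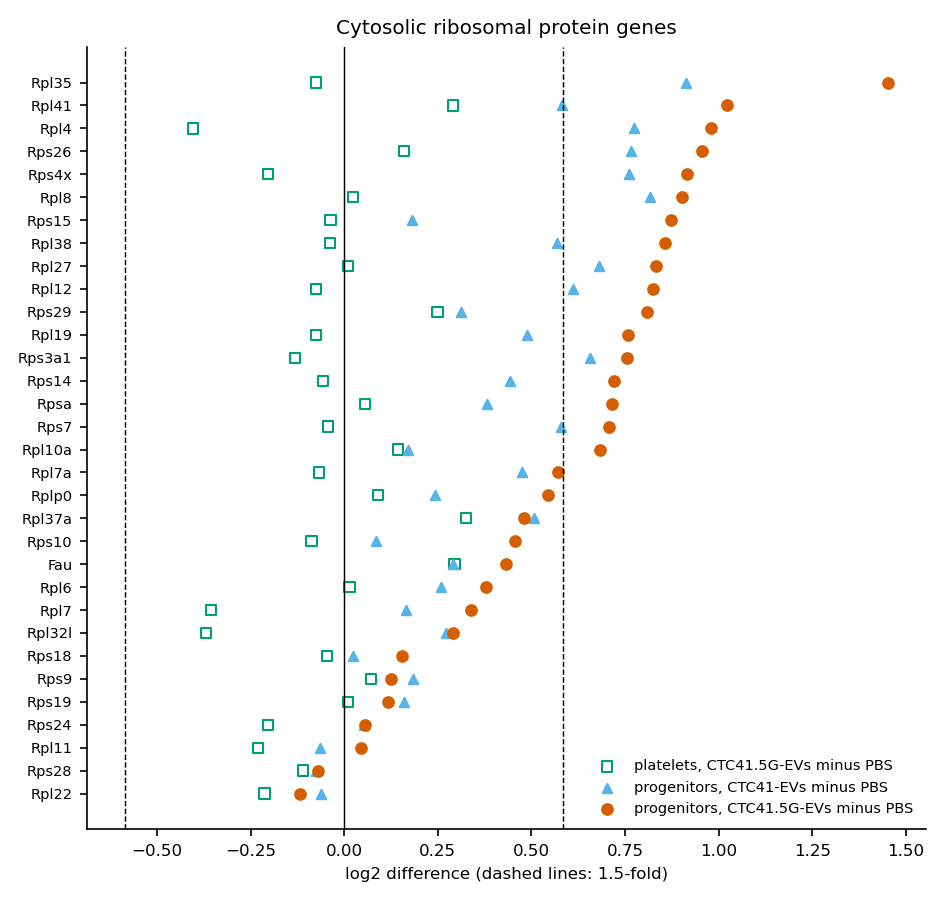
Log2 differences of the 32 tested cytosolic ribosomal protein genes, ordered by CTC41.5G-EVs minus PBS in progenitors (circles), with CTC41-EVs minus PBS in progenitors (triangles) and CTC41.5G-EVs minus PBS in platelets (squares). The circles have a median of 0.70 and the squares one of -0.05, and Rpl12, Rpl27, Rpl35, Rpl41 and Rpl7a were read by probes on other chromosomes.

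Other genes of translation lay on the same side. Of 20 tested translation factors 19 were higher and 1 lower, 5 by at least 1.5-fold, with a median of 0.27. Pabpc1, which binds the poly(A) tail of mRNA, stood at 5.30 with PBS, 6.19 with CTC41-EVs and 6.43 with CTC41.5G-EVs, a difference of 1.13. Eef1a1, which delivers aminoacyl-tRNA to the ribosome, stood at 8.18, 8.80 and 9.09, and Eif3h, an initiation factor subunit, at 5.27, 5.75 and 5.99. For each of these the PBS array was lowest and the CTC41.5G-EVs array highest. Eef2, which moves the ribosome along, differed by 0.70, and by 0.46 after quantile normalization. The 35 tested mitochondrial ribosomal protein genes, which serve the separate ribosome of mitochondria, had a median of 0.12 with 0 past 1.5-fold either way.

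Ribosomal protein promoters often hold binding motifs of ETS factors. Promoter stretches are therefore shown for 2 ribosomal protein genes, each with a probe on its own chromosome that differed by at least 1.5-fold. The mean of the Rps26 probes did not reach that line. In the 250 bases upstream of the start, in RefSeq's GRCm38.p6, the motif CCGGAAG on either strand was found for 10 of 28 tested ribosomal protein genes with a window (35.7%), for 10.9% of 6161 tested genes with one and for 6.91% of all 32851 windows. Capitals mark the match, on the opposite strand for Rpl35, and both genes lie on the minus strand.
Rpl35, chr2:39005212-39005298: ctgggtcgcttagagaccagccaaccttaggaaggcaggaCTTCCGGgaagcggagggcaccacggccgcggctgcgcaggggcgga
Rps26, chr10:128626674-128626756: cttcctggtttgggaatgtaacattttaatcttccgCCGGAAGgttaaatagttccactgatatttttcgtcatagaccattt
Rpl4 and Rps4x, with differences of 0.98 and 0.92, had no match in this window. A match is a string of letters and was not linked to binding here.

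Some immediate early genes were among the largest differences. Of 23 tested members 20 were above 0 and 3 below, beside 7978 of all 10636 genes above 0, and 4 were at least 1.5-fold higher, 2 after quantile normalization, beside 5.57% of all genes. The median was 0.26, and 0.23 for CTC41-EVs minus PBS. Dusp1, a phosphatase that switches off MAP kinases, stood at 7.07 with PBS, 7.82 with CTC41-EVs and 8.28 with CTC41.5G-EVs, a difference of 1.21 (2.31-fold). Fosb, a partner in the AP-1 transcription factor, stood at 7.22, 7.87 and 8.25, a difference of 1.03. The order of the 3 arrays was the same for both genes. Jun, another AP-1 member, stood at 5.24, 5.72 and 5.91, and Egr1, a zinc finger factor, at 5.54, 5.90 and 6.18. The differences of 0.67 and 0.64 fell under 1.5-fold for both after quantile normalization, at 0.58 and 0.56, and for Egr1 in the other 2 scalings as well (0.58 and 0.57). Fos, the usual partner of Jun, stood at 5.74, 6.06 and 6.11 and differed by 0.37, while Egr3, Klf2 and Fosl2 differed by 0.01, -0.02 and -0.03.

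The 2 leading immediate early genes carry motifs of the cyclic AMP response element, a binding site of CREB factors, near their starts. The full element TGACGTCA was found upstream of 2 of 18 immediate early genes with a window (11.1%), beside 2.42% of tested genes and 1.55% of all windows. Its shorter core TGACG, which the full element contains, was found for 11 of the 18 (61.1%), beside 24.4% of tested genes and 17.8% of all windows, on either strand. Both stretches come from the minus strand of RefSeq's GRCm38.p6, with the full element in capitals for Dusp1 and the core for Fosb.
Dusp1, chr17:26508568-26508652: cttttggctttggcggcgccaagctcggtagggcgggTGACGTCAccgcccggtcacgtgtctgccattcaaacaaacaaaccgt
Fosb, chr7:19310061-19310145: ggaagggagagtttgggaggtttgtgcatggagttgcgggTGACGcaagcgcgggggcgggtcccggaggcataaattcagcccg
Jun had no match in its window.

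The redox control genes Txnip and Gpx1 were among the 15 highest protein-coding differences. Fas, of cell death, ranked there only by a probe on another chromosome than the gene's. Txnip, which binds and inhibits thioredoxin, stood at 6.24 with PBS, 6.94 with CTC41-EVs and 7.32 with CTC41.5G-EVs, a difference of 1.07. Gpx1, a glutathione peroxidase that removes peroxides, stood at 6.40, 6.86 and 7.40, and Sod1, superoxide dismutase, at 6.12, 6.68 and 6.77 (0.65, and 0.53 to 0.58 in the 3 scalings, under 1.5-fold). Their list, antioxidant and hypoxia genes, had 12 members above 0 and 2 below, 3 by at least 1.5-fold and 2 in each scaling, with a median of 0.17. Fas, a death receptor gene, stood at 7.70, 8.22 and 8.72, a difference of 1.02, but on a probe of chromosome 17. The probe on chromosome 19, where Fas lies, read 3.75, 3.88 and 3.97, under the floor on each array. The list of p53, BCL2 and death receptor genes had a median of 0.19, and without that probe 0 of its members were past 1.5-fold.

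The remaining protein-coding genes among the 15 highest had no common role. Ctla2a, related to inhibitors of cathepsins, went from 5.12 with PBS to 5.81 and 6.16 (1.04), and the membrane protein gene Serinc3 from 6.18 to 7.01 and 7.12 (0.94). The olfactory receptor genes Olfr1341 and Olfr403 differed by 1.02 and 0.95, and Olfr1341 lay under the floor with PBS, at 4.73. On all 15 of these genes the CTC41-EVs array lay between the other 2, whose order is fixed by how the genes were chosen.

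**Figure D3:**
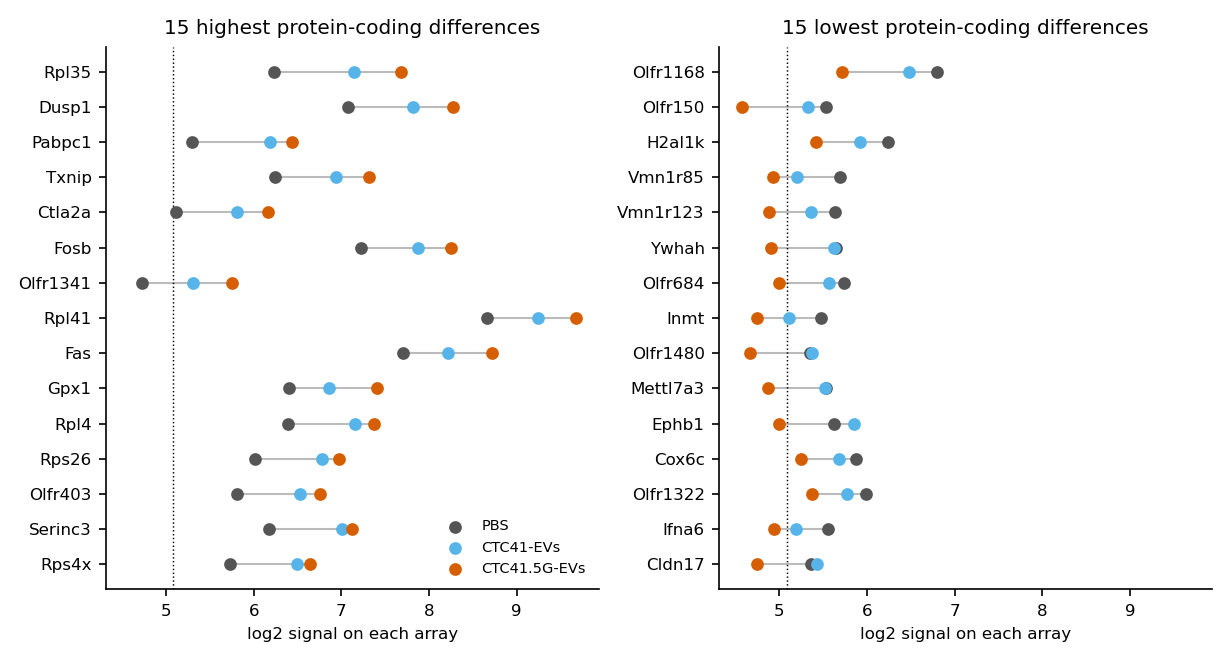
Log2 signal on the PBS, CTC41-EVs and CTC41.5G-EVs progenitor arrays for the 15 highest and the 15 lowest protein-coding differences, with the dotted line at the floor of 5.08. The order of the PBS and CTC41.5G-EVs arrays follows from the choice of genes, and on the right the CTC41.5G-EVs array lies in most cases under the floor.

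As groups, the tested genes of the platelet programme differed little. Of 13 tested platelet receptor and adhesion genes 10 were higher and 3 lower, beside 7978 of all 10636 genes higher. Their median was 0.13, equal to that of all genes, and 0 were past 1.5-fold. Without a floor the list held 27 genes, 0 at least 1.5-fold higher and 1 lower. The glycoprotein gene Gp5, left out by the floor, stood at 5.22, 5.12 and 4.41 (-0.81). Itgb3, the beta chain of the fibrinogen receptor, stood at 6.07, 6.17 and 6.45 (0.38), and its partner Itga2b at 6.50, 6.45 and 6.58 (0.08). Of 16 alpha-granule and cargo genes 12 were higher and 4 lower with a median of 0.06. Ppbp, a chemokine precursor of alpha-granules, stood at 5.25, 5.36 and 5.87 (0.62), and Srgn, the granule proteoglycan serglycin, at 6.08, 6.49 and 6.71 (0.63). Both fell under 1.5-fold in all 3 scalings, at 0.52 to 0.56. The chemokine gene Ccl5 lay the other way, at 6.22, 6.29 and 5.65 (-0.58).

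Of 23 tested proplatelet cytoskeleton genes 15 were higher and 8 lower, with a median of 0.03. Cfl1, the actin-severing protein cofilin, was the member past 1.5-fold, at 6.44, 6.71 and 7.23 (0.78). The medians of the alpha-granule and cytoskeleton lists lay under 0, at -0.01 to -0.07, in each of the 3 scalings. Among 16 megakaryocyte transcription factors, 13 higher and 3 lower with a median of 0.12, Etv6, an ETS family repressor, stood at 5.49, 6.05 and 6.32 (0.84). Of 16 genes of thrombopoietin and JAK-STAT signalling, the main growth signal of megakaryocytes, 15 were higher, 1 lower and 0 past 1.5-fold, with a median of 0.19.

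The labelled cell type was set against its markers. Reaching the floor does not by itself show a cell type, since 181 olfactory receptor genes also passed it, and 4 of 6 B lymphoid and 3 of 5 stroma markers reached it on each array. Of the 10 measured markers of megakaryocytes and platelets, 9 reached the floor on the PBS array, 9 on the CTC41-EVs array and 8 on the CTC41.5G-EVs array. Several lay just above it, such as Tubb1, the beta-tubulin of platelets, at 5.31, 5.36 and 5.32. The exceptions were Clec1b, the podoplanin receptor, at 3.81, 4.03 and 4.01, and Gp5, a glycoprotein of the von Willebrand factor receptor, at 5.22, 5.12 and 4.41. Stem and progenitor markers were partly present, with Kit at 5.80, 6.06 and 6.22 and Slamf1 under the floor on each array. Of 11 neutrophil markers 10 reached the floor on each array, with medians of 6.81, 6.70 and 7.25. In bulk RNA, fewer cells of a type and less RNA per cell cannot be told apart.

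The early neutrophil genes Mpo and Elane were higher on the EV arrays, while other neutrophil genes, early and late, varied. Mpo, myeloperoxidase of neutrophil precursors, stood at 7.75 with PBS, 8.22 with CTC41-EVs and 8.41 with CTC41.5G-EVs (0.66, and 0.34 after quantile normalization), and Elane, neutrophil elastase, at 6.81, 7.43 and 7.25 (0.44). Ngp and Camp, granule genes of later stages, stood at 8.65, 8.93 and 8.69 and at 8.68, 8.65 and 8.65. The early genes Prtn3 and Ctsg differed by 0.15 and 0.07 for CTC41.5G-EVs minus PBS. Of other late genes, Ltf and Lcn2 differed by 0.00 and 0.03, S100a8 by 0.22, S100a9 by 0.23 and Pglyrp1 by 0.41. For CTC41-EVs minus PBS, S100a8 lay at -0.38 and S100a9 at 0.42. The list of azurophil granule and precursor genes had 12 of 12 tested members above 0, beside 7978 of all 10636 genes, with a median of 0.27. Without a floor this list held 20 genes with a median of 0.16, beside 0.09 over all genes without a floor. The list of late neutrophil genes had 15 above and 4 below, close to the share of all genes. Its median was 0.04, which was -0.03 to -0.05 in the 3 scalings. Cebpa, a granulocyte transcription factor, was higher on the CTC41.5G-EVs array alone, at 5.56, 5.57 and 6.15, a difference of 0.60 that was 0.50 to 0.53 in the 3 scalings. The 8 tested stem and progenitor genes were all higher, with a median of 0.35, and 0.23 over 22 genes without a floor. They were led by Adgrg1, an adhesion receptor of stem cells, at 6.67, 7.10 and 7.36 (0.69, and 0.52 after quantile normalization).

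Of 5 basophil and mast cell markers 4 were above 0 and 1 below. Cpa3, mast cell carboxypeptidase, stood at 4.92, 5.40 and 5.54 (0.62, and 0.54 to 0.55 in the 3 scalings), whereas Mcpt8, a basophil protease, stood at 6.42, 6.86 and 6.46 (0.04) and Prss34 at 7.62, 8.16 and 7.90 (0.28). Cpa3 lay under the floor with PBS and passed it through the EV arrays. Of the 3 eosinophil markers Prg2, major basic protein, differed by 0.56, Epx by 0.05 and Siglecf by 0.06. Of 5 T and NK markers 1 was above 0 and 4 below, with a median difference of -0.07. Cd3e, of the T cell receptor complex, stood at 4.96, 5.01 and 5.45 and passed the floor through the CTC41.5G-EVs array, while Cd8a lay at -0.35. The 4 endothelial markers had a median difference of 0.20, with Pecam1 at 5.13, 5.01 and 5.21. Their part in the other results was not tested.

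**Figure D4:**
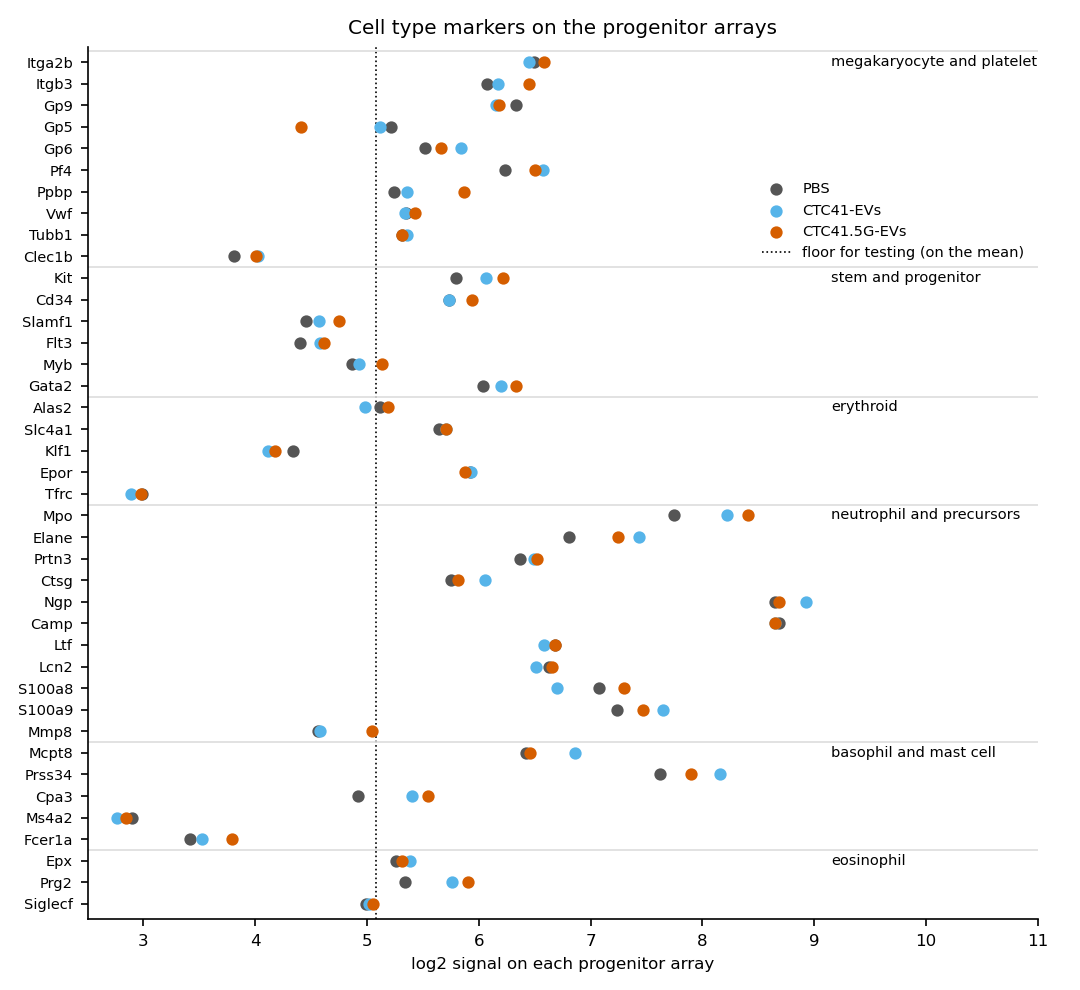
Log2 signal of blood cell markers on the 3 progenitor arrays, 1 row a gene, with the floor of 5.08 dotted. Neutrophil markers lie above the floor on each array except Mmp8, and Gp5 and Ppbp are the platelet markers for which the CTC41.5G-EVs array lies furthest from the others.

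Genes of chromatin, mitochondria and antigen presentation were also counted. Of 18 tested histone genes 16 were higher and 2 lower, 6 by at least 1.5-fold, with a median of 0.33, but 1 was past the line after quantile normalization. H2az1, the variant H2A.Z, stood at 6.48, 7.01 and 7.23 (0.74), and H2ac10, a core H2A, differed by 0.72, which was 0.02 after quantile normalization. Of 50 oxidative phosphorylation genes 39 were higher and 11 lower with a median of 0.23, beside 7978 of all 10636 genes higher. Uqcrq and Uqcrh, subunits of complex III, differed by 0.81 and 0.78, whereas Cox6c, of cytochrome oxidase, stood at 5.87, 5.68 and 5.24 (-0.63). Atp5l, of the ATP synthase, differed by 0.70 on a probe of chromosome 5 and by -0.10 on its own chromosome. B2m, beta-2 microglobulin of MHC class I, stood at 6.49, 6.83 and 7.19 (0.70, and 0.55 after quantile normalization) in a list of 19 antigen presentation genes with a median of 0.27. Ly6e was the interferon response gene past 1.5-fold, at 6.50 with PBS and 7.33 with CTC41.5G-EVs, while that list of 17 genes had a median of 0.11.

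**Figure D5:**
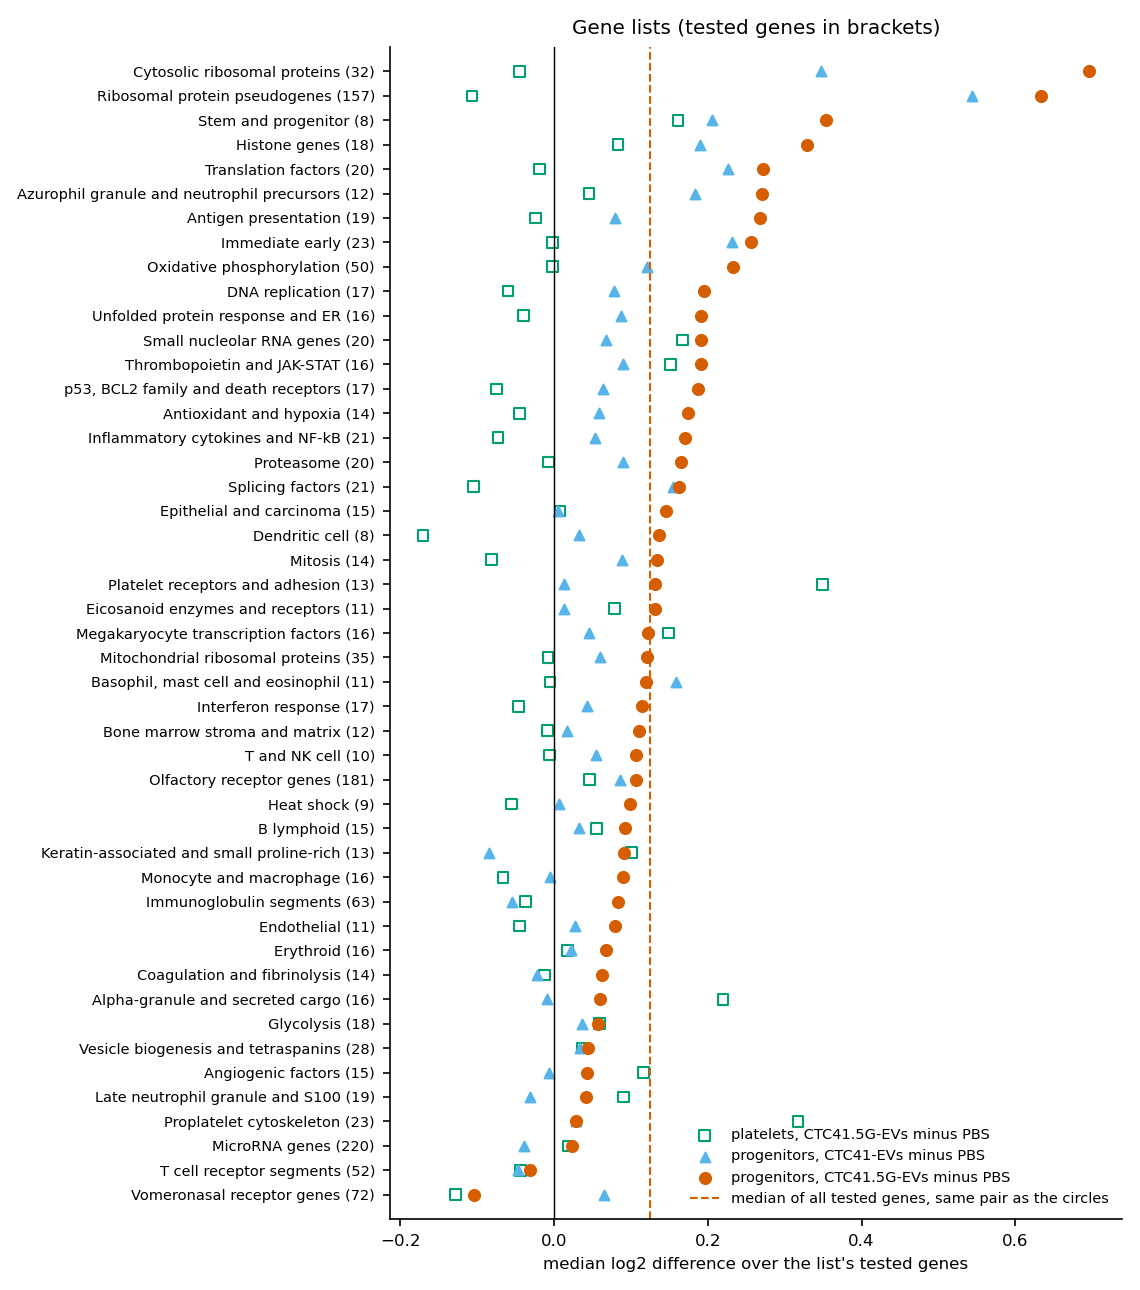
Median log2 difference of each gene list with at least 5 tested genes, for CTC41.5G-EVs minus PBS in progenitors (circles), CTC41-EVs minus PBS in progenitors (triangles) and CTC41.5G-EVs minus PBS in platelets (squares), with the dashed line at the median of all genes. Ribosomal protein genes and their pseudogenes lie highest among the circles, at 0.70 and 0.63, and platelet receptor genes at 0.13 among the circles and 0.35 among the squares.

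Many of the higher genes were not protein-coding. Pseudogenes made up 284 of the 592, out of 1652 tested (17.2%), and small nuclear RNA genes 68 out of 311 (21.9%), against 2.34% of protein-coding genes. Of the 592 genes, 346 carried a predicted-gene or clone name, and the 592 held 524 distinct sets of values, since some genes share all their values with another. Ubb-ps, a pseudogene of ubiquitin B, stood at 8.91, 9.58 and 10.34 (1.43). Tpt1-ps3, a pseudogene of the translationally controlled tumour protein, stood at 4.96, 5.84 and 6.27 (1.31), under the floor with PBS. Of 377 small nucleolar RNA genes 26 were at least 1.5-fold higher (6.90%, near the share of all genes) and 8 lower, with a median of 0.14. Snora68 stood at 5.34, 5.79 and 6.14.

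MicroRNA genes were split nearly evenly by sign, unlike all genes. Of 220 tested, 113 were higher and 107 lower, beside 7978 of all 10636 genes higher. By at least 1.5-fold 5 were higher and 8 lower, beside 5.57% and 0.762% of all genes. Their median was 0.02, beside 0.13 over all genes, and -0.05 to -0.13 in the 3 scalings. The 3 named genes with the largest differences upwards were Mir138-2, at 4.64 with PBS, 5.37 with CTC41-EVs and 5.49 with CTC41.5G-EVs, Mir695, at 5.80, 6.06 and 6.63, and Mir219b, at 5.12, 5.10 and 5.90. Mir138-2 lay under the floor with PBS and passed it through the EV arrays. The CTC41.5G-EVs array stood apart from both others for Mir219b. The arrays read transcripts of the gene, and whether they read precursor or mature forms was not given in the sources used here. The mature sequences are shown to identify these genes, from RefSeq's GRCm38.p6, with the seed, bases 2 to 8, in capitals.
miR-138-5p, chr8:94324312-94324334: aGCUGGUGuugugaaucaggccg
miR-138-2-3p, chr8:94324359-94324379: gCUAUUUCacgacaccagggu
miR-695, chr2:155356831-155356852: aGAUUGGGcauaggugacugaa
miR-219b-5p, chr2:29845647-29845668: aGAUGUCCagccacaauucucg
miR-219b-3p, chr2:29845689-29845711: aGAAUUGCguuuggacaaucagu
No 2 of them share a seed. Mir669b lay lower, at 6.64, 6.08 and 5.64 (-1.01), but the mean of its probes differed by -0.24. The value listed for Mir8115 was the largest negative difference of all named genes, at 6.47, 6.09 and 5.09 (-1.38), on a probe of chromosome 11, whereas the gene lies on chromosome 5.

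The genes lower with CTC41.5G-EVs were few. By mean signal, 30 of the 81 lay from 5 to 5.5 and 24 from 5.5 to 6, beside 4596 and 3512 of all 10636 genes. Of the 15 lowest protein-coding differences 5 were olfactory receptor genes and 2 vomeronasal receptor genes, which sense odours and pheromones. On 5 of these 7 the CTC41.5G-EVs array lay under the floor, which the choice of genes low on that array favours. Olfr1168 stood at 6.80, 6.48 and 5.72 (-1.08), and Vmn1r85 at 5.69, 5.20 and 4.93 (-0.76). As a group, the 72 tested vomeronasal receptor genes and pseudogenes had 24 members higher and 48 lower, 1 and 9 by at least 1.5-fold, with a median of -0.10 (0.01 without a floor). The 181 olfactory receptor genes had 118 higher and 63 lower, 12 and 5 by at least 1.5-fold, with a median of 0.11 (-0.01 after quantile normalization).

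Among the lower genes with other roles, Ywhah, a 14-3-3 adaptor protein, stood at 5.65, 5.63 and 4.91 (-0.75), apart from both other arrays. Inmt, a methyltransferase, stood at 5.48, 5.11 and 4.75, Ephb1, a receptor tyrosine kinase, at 5.62, 5.85 and 5.00, and the tight junction gene Cldn17 at 5.36, 5.44 and 4.74. The mean of the probes of Ephb1 differed by -0.25. Atp5l2, named for its likeness to an ATP synthase subunit, stood at 8.44, 8.43 and 7.22 (-1.22) and was the gene for which the CTC41.5G-EVs array lay furthest below both others. Ighv8-13, an immunoglobulin segment, stood at 5.63, 5.47 and 4.69.

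The same treatment in platelets gave a different set of values. Platelets of mice given CTC41.5G-EVs had 139 of the 10636 genes at least 1.5-fold higher than with PBS (1.31%) and 166 lower (1.56%), with a median of 0.00. The floor was set on the progenitor arrays alone, so these counts include genes that lay under it in platelets. The progenitor and platelet pairs share no array. Over the 10636 genes their differences correlated at 0.11 (Pearson) and 0.08 (Spearman), a description over genes that are not independent. Higher in both were 31 genes, 5.24% of those higher in progenitors and 22.3% of those higher in platelets. Lower in both were 8 genes, 9.88% and 4.82% of the respective lower genes. Mif, a cytokine that acts on macrophages, differed by 0.91 in progenitors and 0.82 in platelets, Dusp1 by 1.21 and 0.65, Mir219b by 0.78 and 0.64 and Ppbp by 0.62 and 0.67. Olfr1322 and Ighv8-13 were lower in both, at -0.62 and -0.75 and at -0.94 and -0.73. In platelets Mir219b (3.19 with PBS and 3.83 with CTC41.5G-EVs), Olfr1322 (4.04 and 3.29) and Ighv8-13 (4.57 and 3.84) lay under the floor.

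The gene groups also had other values in platelets. Ribosomal protein genes had a median of 0.70 in progenitors and -0.05 in platelets, immediate early genes 0.26 and 0.00, and ribosomal protein pseudogenes 0.63 and -0.11. Platelet receptor genes had 0.13 and 0.35, and proplatelet cytoskeleton genes 0.03 and 0.32, with 23 of 23 above 0 in platelets. These differences between the cell types were not tested, since each is 1 array against 1.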

How the data were processed

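The authors' deposited table holds log2 signals of 72688 Clariom D probes on 6 arrays, used as deposited with no pseudocount. The submitters' processing notes list Affymetrix Expression Console 1.4.1.46 and the series' design text lists MAS5.0, so how the arrays were scaled to each other is unclear. A genome build was not given in the sources used here. Input RNA is stated as both 3 ng and 5 ng, and both mirVana and RNeasy kits are listed, per the labels' protocols. Of the probes, 30604 named 1 gene symbol and were used, 2146 named several and 39938 none. Entrez identifiers matched 22818 of them to RefSeq's GRCm38.p6, which updated 827 symbols. Each of the 30142 genes took its probe with the highest mean over the 6 arrays, and 355 genes had more than 1.

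Genes at or above the 75th percentile of all values (5.08), as the mean over the 3 progenitor arrays, were compared by subtraction in Python 3.11.15 with pandas 2.3.3. Simulated data checked the arithmetic alone. The planted changes lay well past the 1.5-fold line on genes well above the floor, so calls near either were not checked. No test was possible. Genes were named by rank: the 15 highest and 15 lowest protein-coding differences, 5 each way of other types, 8 each way furthest from both other arrays, up to 4 a list, the markers, and up to 8 each way past 1.5-fold in both cell types. Fos, Rps28, Rpl22, Rpl12, Rpl27, Rpl7a, Egr3, Klf2 and Fosl2 were named after their values were seen. Predicted-gene names were counted, not named. The gene lists and the pair were chosen with earlier results of these data known. Alternatives were 3 scalings of the progenitor arrays, other floors, the mean of a gene's probes, protein-coding genes only, identical values counted once and a 2-fold line.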

Additional observations from a re-analysis of the deposited data

Results flagged for a closer look

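Olfr684, an olfactory receptor gene, lay at -0.73 for CTC41.5G-EVs minus PBS in progenitors and at 0.72 in platelets, past 1.5-fold in opposite directions in the 2 cell types, and the difference between them was not tested. Its platelet values, 2.85 with PBS and 3.56 with CTC41.5G-EVs, lay under the floor. Among probes that name no gene, left out of the comparisons, 9166 reached the floor, of which 999 (10.9%) were at least 1.5-fold higher with CTC41.5G-EVs than with PBS and 418 (4.56%) lower. With CTC41-EVs the same probes gave 616 and 176 against the same PBS array. Of 1038 probes that name several genes and reached the floor, 153 were higher and 8 lower.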

How the results depend on the processing

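The count of genes at least 1.5-fold higher, 592, was 397 with arrays shifted to the same median, 388 with arrays shifted to the same median of olfactory receptor genes, 257 after quantile normalization, 298 relative to the median of the tested genes, 965 without a floor, 162 over protein-coding genes and 59 at 2-fold. The count lower, 81, was 157 after quantile normalization, 157 relative to that median, 139 with the floor at the 50th percentile, 28 at the 90th, 257 without a floor, 20 over protein-coding genes and 6 at 2-fold. With the CTC41-EVs array in place of the PBS array the counts were 65 and 85. In the other alternatives both counts stayed within 1.5 times. Of 211 named genes 92 were past 1.5-fold. Under the 3 scalings 0 of the 211 changed sign, while 11, 20 and 11 of the 92 dropped under 1.5-fold, and 5 did with the mean of a gene's probes. The genes were named mostly for large differences, and both shifts lowered each difference by the same small amount. Unchanged signs under the shifts thus do not show how firm these differences are. Without probes on another chromosome than the gene, Rpl41 was -0.03 and Atp5l -0.10, the reverse of their main sign, and Fas was 0.22. That alternative, the centring on the median and the swapped array were added after the values were seen. No paired analysis was possible because each group is 1 array. Array signals carry no read depth, so precision is limited by having 1 array a treatment.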

Other observations

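Genes placed on the Y chromosome differed as a group. The 37 tested, 35 of them with predicted-gene names, had a median difference of 0.71 for CTC41.5G-EVs minus PBS in progenitors, 25 at least 1.5-fold higher and 0 lower, with medians of 0.60 for CTC41-EVs minus PBS and 0.27 for CTC41.5G-EVs minus PBS in platelets. The single-copy Y genes Kdm5d, Uty and Eif2s3y lay under the floor on each progenitor array, at 3.55, 3.58 and 3.74, at 3.05, 3.13 and 3.27 and at 2.75, 2.86 and 2.93. Xist, the RNA that coats the inactive X chromosome, stood at 5.075, 4.60 and 4.24, also under the floor of 5.084 on each array. The 392 tested genes of the X chromosome, 238 of them with predicted-gene names, had a median of 0.02. Of these, 43 were at least 1.5-fold higher and 16 lower, beside 592 and 81 of all 10636. Each autosome with at least 20 tested genes had a median between 0.10 and 0.16.

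The mitochondrial ribosomal RNA gene mt-Rnr1 lay lower with CTC41.5G-EVs in progenitors, at 13.14, 13.07 and 12.77 (-0.37), and higher by 0.58 in platelets. The epithelial gene Scgb1a1, a secretory protein of airway cells, stood at 5.59, 5.61 and 6.13 in progenitors. It differed by 1.08 in platelets, from 4.64 with PBS, under the floor, to 5.72. Lrrc32, which tethers latent TGF-beta to the cell surface, stood at 4.81, 5.62 and 5.63, under the floor with PBS, and differed by 0.58 in platelets.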
